A study of Mus musculus with 8 samples.

Results

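Kit, Kitl, Sohlh1, Sohlh2, Dmrt1, Dmrtb1, Stra8 and Esx1 are genes of the Kit signalling pathway and of spermatogonial differentiation in the testis. They were followed here in testes that lacked intact Vrk1, a gene for a nuclear serine/threonine kinase. Every non-control probe of the arrays that carried one of the 8 gene names was taken. This gave 9 of the 41174 probes, for 7 of the 8 genes, and all 9 passed the filter on dim probes. No probe carried the name Sohlh1, which was not analysed here. The samples were 4 mutant (VRK1-/-) and 4 wild-type (VRK1+/+) preparations of whole testicular cells from male mice, each labelled as a biological replicate and hybridised to 1 single-colour Agilent array. The labels state neither the age and strain of the mice nor how Vrk1 was altered, nor which animal stands behind each replicate. The comparison asked how RNA levels of the testis differed with Vrk1 genotype, and in such mixed tissue fewer cells of a type and less RNA per cell cannot be told apart.

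Kit ligand, made by Sertoli cells, exists as a soluble and a membrane-bound form. It activates the receptor tyrosine kinase Kit on differentiating spermatogonia, and Leydig cells and mast cells also carry the receptor. Round and elongating spermatids make a shortened Kit transcript from an internal start. Sohlh1 and Sohlh2 are helix-loop-helix transcription factors that drive Kit transcription in spermatogonia. Dmrt1 keeps spermatogonia from entering meiosis early, and Stra8 is the retinoic acid target required for meiotic entry. Dmrtb1 (also called Dmrt6) helps close the spermatogonial programme, and Esx1 is a homeobox gene of the X chromosome expressed in male germ cells.

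The 60-base probes define which part of each transcript was read, so the first 30 bases of each are given below 5′ to 3′ in lower case, with the mm7 coordinates of the array files.
Kit A_51_P355906, chr5:75074515-75074574, + strand: tgtggtcatgtacgagactgtcaccagtta
Kitl A_51_P133936, chr10:99661255-99661314, + strand: ctaaggtgactatttatgatcctagaatgt
Kitl A_52_P572571, chr10:99638154-99638213, + strand: ttggctacgagatatggtaatacaattatc
Sohlh2 A_51_P378699, chr3:55338927-55338986, + strand: ggcatttgaaagagcccccttcttccatca
Dmrt1 A_52_P436393, chr19:25303450-25303509, + strand: ttcatgttagagttaggttaaaacacttgt
Dmrtb1 A_51_P341296, chr4:107053160-107053219, - strand: gcttttgaagagtgggggctggtgaaacac
Dmrtb1 A_52_P66596, chr4:107057216-107057275, - strand: agtctgatcatgtggtaggagctgggaatc
Stra8 A_51_P276305, chr6:34870433-34870492, + strand: ccagtagctagagttatactgccttgtctt
Esx1 A_51_P450248, chrX:131834651-131834710, - strand: aaacactatcacgcattacctgtcaagaag
Both Kitl probes lie on the + strand with starts 23101 bases apart, and both Dmrtb1 probes on the - strand with starts 4056 bases apart. The other genes had 1 probe each, and whether the Kit probe also reads the shortened spermatid transcript was not tested. Exon and untranslated-region positions were not assigned, since no mm7 annotation was used.

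Levels are given as log2 of the processed signal relative to the 75th percentile of the same array, which is therefore 0 on every array. That percentile was 928 to 1124 signal units on the mutant and 680 to 790 on the wild-type arrays, and 83.3% to 86.5% of features lay well above background in the mutant against 73.2% to 77.5% in wild type. All mutant arrays were on 1 slide and all wild-type arrays on another, scanned separately, so genotype and slide cannot be told apart. Vrk1 itself fell by 2.26 on the log2 scale (4.78-fold lower, limma adjusted p = 1.65e-04) and was still well above background on all 4 mutant arrays. Mutant replicates 1 and 4 stood apart by the summed level of 6 tested epididymal genes, in multiples of the 75th percentile. The sum was 14.5 and 11.0 on these arrays, 1.25 and 1.09 on mutant replicates 2 and 3, and 0.707 to 0.768 in wild type. Of these 6, 3 were higher (50%, beside 21.6% of all tested genes) and 3 did not pass. Crisp1, a secreted protein gene of the epididymis, differed by 4.91 (adjusted p = 0.0256) and Spink8 by 3.79 (adjusted p = 0.0134). These 2 genes weighed most in the high sums. Crisp1 had log2 levels of 2.50 and 2.80 in mutant replicates 1 and 4, and Spink8 had 3.02 and 1.74. The other called gene, Rnase9, was well above background on all 4 mutant arrays but on only 1 wild-type array, so it reached the filter through the mutant. Cst11, Rnase10 and Lcn9 differed by 0.25, 0.12 and -0.03 (adjusted p = 0.219, 0.692 and 0.874). They varied little among the 4 mutant arrays (SD 0.24, 0.15 and 0.06), so they did not set replicates 1 and 4 apart. Without mutant replicates 1 and 4, Spink8 alone of the 6 passed, at 1.96 (adjusted p = 0.0360). All 16 Sertoli and all 8 spermatid markers listed for the testis were well above background on every array. Each of the 9 probes and each gene list is therefore also given without these 2 arrays, a fit that rests on 2 mutant against 4 wild-type arrays.

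Of the 9 probes, 3 were higher in the mutant (both Kitl probes and the Kit probe), 3 were lower (both Dmrtb1 probes and the Esx1 probe) and 3 did not pass the test (Sohlh2, Dmrt1 and Stra8). The test was limma with Benjamini-Hochberg adjustment over all 33717 probes that passed the filter, at an adjusted p under 0.05. Across those probes 21.2% were higher and 10.8% lower, 32.1% in all, so calls in both directions were common on these arrays. The same 6 probes showed no overlap between the genotypes, with 3 above and 3 below, where 21.6% of all tested probes lay wholly above and 13.8% wholly below. The median difference of all tested probes was 0.05, but it depended on the level. Among probes whose mean level lay within 0.5 log2 units of the probe in question, it was 0.31 at the dim Kitl probe (27.1% higher, 4.24% lower), 0.05 at the brighter Kitl probe, and -0.05 at Kit (18.6% higher, 9.73% lower). It was -0.35 at Stra8 (8.86% higher, 28.1% lower), -0.43 at the brighter Dmrtb1 probe (4.85% higher, 35.4% lower), -0.11 at the other Dmrtb1 probe and -0.18 at Esx1 (16.3% higher, 15.8% lower). Dim probes thus tended to read higher and bright probes lower in the mutant. Without mutant replicates 1 and 4 none of the 9 probes passed the limma test, although 3 were higher and 2 lower at an unadjusted p under 0.05, and over all probes 1321 were higher and 220 lower, against 7160 and 3655 with all arrays.

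**Figure D1:**
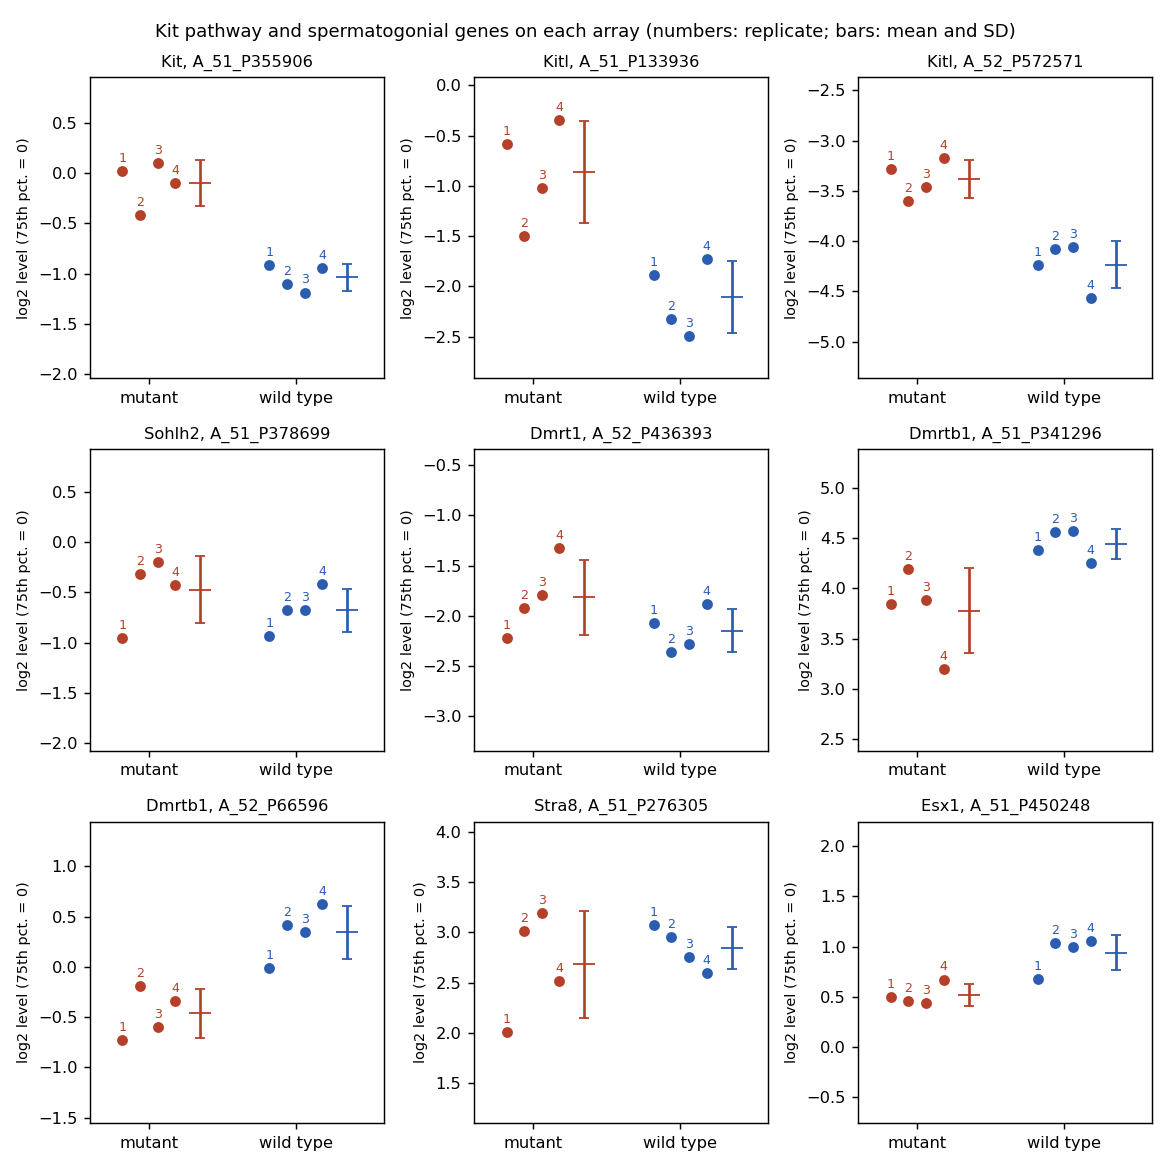
Log2 level (vertical axis, 75th percentile of the array = 0, each panel spanning the same range of log2 units) of the 9 probes in the 4 mutant (left, red) and 4 wild-type samples (right, blue), with replicate numbers and bars for mean and SD. The mutant points of Kit and of both Kitl probes lie above every wild-type point, those of both Dmrtb1 probes and of Esx1 lie below, and Sohlh2, Dmrt1 and Stra8 overlap.

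The ligand gene Kitl was higher in the mutant with both of its probes. Probe A_51_P133936 had log2 levels of -0.59, -1.50, -1.02 and -0.34 in mutant replicates 1 to 4, against -1.88, -2.32, -2.49 and -1.72 in wild-type replicates 1 to 4. The lowest mutant sample, replicate 2, lay above the highest wild-type sample, replicate 4. Means were -0.86 ± 0.51 in the mutant and -2.11 ± 0.36 in wild type (SD, n = 4 each). The difference of 1.24 (SE 0.27, 95% interval 0.64 to 1.85) corresponded to a 2.37-fold higher level (limma adjusted p = 0.00979). The probe was printed on 10 spots per array, whose SD on the log2 scale was 0.0764 to 0.0993 in the mutant and 0.148 to 0.232 in wild type, less than the spread between samples of a genotype. Kitl levels in mutant replicates 1 and 4 were the highest of all, and without these arrays the difference was 0.85 (adjusted p = 0.102).

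The second Kitl probe, A_52_P572571, was dim. Its log2 levels were -3.28, -3.60, -3.46 and -3.17 in mutant replicates 1 to 4, against -4.24, -4.08, -4.06 and -4.56 in wild-type replicates 1 to 4. All 4 mutant samples lay above all 4 wild-type samples. The difference was 0.85 (SE 0.16, 95% interval 0.49 to 1.22, 1.81-fold, limma adjusted p = 0.00617). It was 0.04 (adjusted p = 0.885) when the background was corrected by normexp on the raw mean signal instead, and 0.70 (adjusted p = 0.0771) without mutant replicates 1 and 4. The changes seen by the 2 Kitl probes differed by 0.39 log2 units, where the gap between the probes had an SD of 0.32 in mutant and 0.58 in wild-type samples (exact two-sided permutation p = 0.314 over 70 arrangements, Benjamini-Hochberg adjusted 0.571 over 2 probe pairs).

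The receptor gene Kit was higher in the mutant as well. Its probe had log2 levels of 0.03, -0.42, 0.10 and -0.10 in mutant replicates 1 to 4, against -0.91, -1.11, -1.19 and -0.94 in wild-type replicates 1 to 4. Mutant replicate 2 was the lowest of its group and still lay above every wild-type sample. Means were -0.10 ± 0.23 in the mutant and -1.04 ± 0.13 in wild type (SD, n = 4 each), a difference of 0.94 (SE 0.15, 95% interval 0.60 to 1.28) or 1.92-fold (limma adjusted p = 0.00342). Unscaled processed signals showed the same separation, at 696 to 1053 in the mutant and 319 to 414 in wild type. The 10 spots of the probe varied by an SD of 0.102 to 0.125 log2 units in the mutant and 0.148 to 0.251 in wild type. The Kit difference was of like size, 0.88, when mutant replicates 1 and 4 were left out, with an adjusted p of 0.0548. The Kit difference was 0.72 with median scaling (adjusted p = 0.00974), 0.91 after quantile normalization, 0.93 after cyclic loess and 0.79 after normexp (adjusted p = 0.0109).

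Genes that carry the signal inside the cell were called in both directions. Of 48 listed transducers and feedback regulators downstream of Kit, 47 were tested with their brightest probe, and 11 were higher, 5 lower and 31 did not pass. One of the 11, Cblb, was well above background on all 4 mutant arrays but on only 1 wild-type array, so it reached the filter through the mutant. These shares of 23.4% and 10.6% lay near those of all tested genes, 21.6% and 12.4%, and the list's median difference was 0.02. Their summed level was 85.3 to 89.0 in the mutant and 91.0 to 92.4 in wild type, slightly lower in every mutant sample. Spry4, a feedback inhibitor, was not well above background on any array. The counts higher and lower were 7 and 3 without mutant replicate 1, 6 and 2 without mutant replicate 3, 6 and 3 without mutant replicate 4, 7 and 4 without wild-type replicate 2, 7 and 2 without wild-type replicate 3, and 1 and 0 without mutant replicates 1 and 4. They also turned with the scaling, to 6 and 13 with median scaling.

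Among the kinases of this list, the Src family members Fyn and Lyn were higher. Fyn had log2 levels of -0.79, -1.18, -0.95 and -0.55 in mutant replicates 1 to 4, against -1.65, -1.79, -1.82 and -1.85 in wild-type replicates 1 to 4. The groups did not overlap, and the difference was 0.91 (SE 0.16, limma adjusted p = 0.00418). Lyn, also used by Kit in mast cells, differed by 1.13 (SE 0.24, adjusted p = 0.00853), and its other probe by 0.74 (adjusted p = 0.0198). Jak2, a cytoplasmic kinase of cytokine receptors, differed by 0.73 (SE 0.14, adjusted p = 0.00612). Pik3cd, the delta catalytic subunit of phosphoinositide 3-kinase, moved the other way. Its log2 levels were 0.10, 0.27, 0.04 and 0.35 in mutant replicates 1 to 4, against 0.77, 1.19, 1.41 and 1.61 in wild-type replicates 1 to 4. The groups did not overlap, the difference was -1.05 (SE 0.19, adjusted p = 0.00492), and the other Pik3cd probe gave -0.61 (adjusted p = 0.0104). Without mutant replicates 1 and 4, Fyn alone of these passed, at 0.72 (adjusted p = 0.0492). Lyn was then 0.83 (adjusted p = 0.0806), Jak2 0.67 (adjusted p = 0.0718) and Pik3cd -1.09 (adjusted p = 0.0583).

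The adaptor Grb2, which links the receptor to Ras, was higher by 0.93 (SE 0.19, limma adjusted p = 0.00869) with the brighter probe and by 0.69 (adjusted p = 0.0346) with the other. The brighter probe gave 0.63 (adjusted p = 0.0811) without mutant replicates 1 and 4. Ptpn6, the phosphatase that restrains Kit, gave no single answer: its brightest probe differed by -0.16 (adjusted p = 0.386), and 2 others by 1.35 (adjusted p = 0.00284) and 0.70 (adjusted p = 0.0435). Akt1, a kinase downstream of phosphoinositide 3-kinase, differed by 0.36 (adjusted p = 0.159), and its other probe by 0.06 (adjusted p = 0.818). Stat3, a transcription factor activated by receptor and Jak kinases, differed by 0.46 (adjusted p = 0.133).

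**Figure D2:**
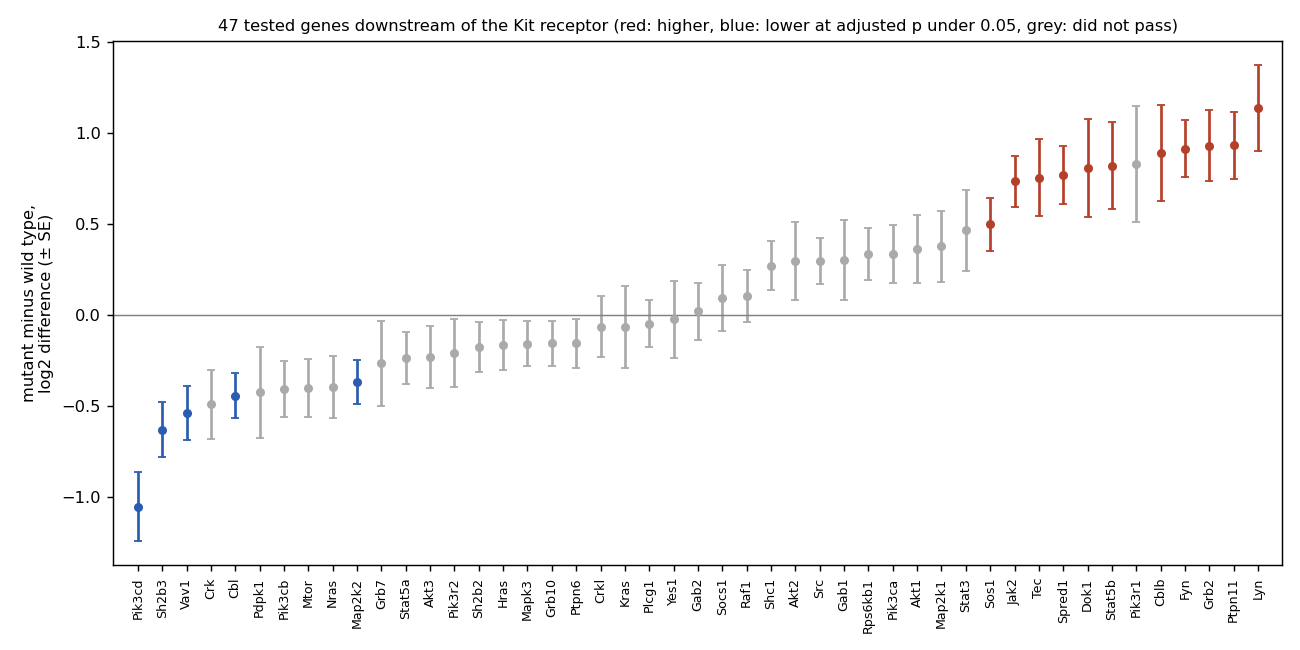
Mutant minus wild-type log2 difference with its SE (vertical axis) of the 47 tested genes downstream of the Kit receptor, 1 probe per gene, in order of the difference. The 11 genes higher in the mutant (red, with Lyn at 1.13 on the right), the 5 lower (blue, with Pik3cd at -1.05 on the left) and the 31 that did not pass (grey) run from one end to the other.

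Cell types that make the ligand or the receptor were read with marker lists. Of 16 Sertoli cell markers tested, 14 were higher, none was lower and 2 did not pass, and the median difference was 0.88. That is 87.5% higher, beside 21.6% of all tested genes. Their summed level, in multiples of the 75th percentile, was 215, 141, 181 and 161 in mutant replicates 1 to 4, against 100.0, 84.7, 84.1 and 66.8 in wild-type replicates 1 to 4. The sums did not overlap. Clu, the brightest gene of this list (mean log2 level 6.77 in the mutant and 5.68 in wild type), weighed most in them. Wt1, a transcription factor of Sertoli cells, differed by 1.12 (SE 0.16, limma adjusted p = 0.00234). Sox8, another Sertoli transcription factor, differed by 1.11 (adjusted p = 0.00395), and the tight-junction gene Cldn11 by 0.87 (adjusted p = 0.00401). Without mutant replicates 1 and 4, 2 of the 16 passed, and 13 were higher and 0 lower at an unadjusted p under 0.05. At that unadjusted threshold all 16 were higher and 0 lower with all arrays. The Sertoli sums and the brighter Kitl probe were both higher on every mutant array than on any wild-type array. Within neither genotype did all 4 replicates rank in the same order for both. In wild type, replicate 4 had the highest Kitl level (-1.72) and the lowest Sertoli sum (66.8). In the mutant it had the highest Kitl level (-0.34) and a sum of 161, against 215 in mutant replicate 1. The other replicates of each genotype ranked in the same order for both, but in wild type this rested on nearly equal sums of 84.7 and 84.1. So few arrays, with replicate 4 set aside, cannot show whether the Kitl level followed the Sertoli sum. The part of Sertoli cells in the Kitl difference was not tested.

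Leydig cell markers were higher in 5 of 8 tested, none was lower and 3 did not pass, with a median difference of 1.11. The 62.5% that were higher stood beside 21.6% of all tested genes. Summed levels were 248, 158, 193 and 149 in mutant replicates 1 to 4, against 136, 83.6, 83.9 and 76.9 in wild-type replicates 1 to 4, with no overlap. Insl3, the brightest gene of this list, weighed most in these sums. Its mean log2 level was 7.09 in the mutant and 6.12 in wild type, and its own values overlapped between the genotypes. Hsd3b1, an enzyme of steroid synthesis, differed by 1.50 (SE 0.20, limma adjusted p = 0.00163). The estrogen sulfotransferase gene Sult1e1 differed by 1.42 (adjusted p = 0.00784), and Hsd3b6, an isoform of the Hsd3b enzyme, by 1.40 (adjusted p = 0.0277). The count of 5 became 2 without mutant replicate 1 or 3 or wild-type replicate 2 or 3, 3 without mutant replicate 4, and 1 without mutant replicates 1 and 4 together. With single arrays left out the count ranged from 2 to 7. It was 3 with median scaling or without the filter on dim probes. The count rose to 7 with quantile normalization or cyclic loess, and to 6 with normexp. At an unadjusted p under 0.05 all 8 were higher and 0 lower. The part of Leydig cells in the Kit difference was not tested.

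Mast cells, whose growth depends on Kit, left a mixed record. Of 9 markers, 3 were higher, 1 was lower and 5 did not pass. These shares of 33.3% and 11.1% stood beside 21.6% and 12.4% of all tested genes. The median difference was 0.47, and the summed level of 5.97 to 8.31 in the mutant overlapped with 5.49 to 7.88 in wild type. Hdc, the brightest gene of the list, weighed most in this sum (mean log2 level 2.08 in the mutant and 1.80 in wild type). Gata2 came next (0.48 and 1.15). The sum therefore says little about the other mast cell markers. One of the 3 higher markers, the tryptase gene Tpsab1, was well above background on all 4 mutant arrays and on no wild-type array. It passed the filter only through the mutant, so its fold and p are not given. Ms4a2, a chain of the IgE receptor, differed by 0.90 (limma adjusted p = 0.0234). The chymase gene Cma1 differed by 0.72 (adjusted p = 0.0259) with its brighter probe and by 0.34 (adjusted p = 0.347) with the other, and the chymase gene Mcpt4 by -0.57 (adjusted p = 0.0432). The counts higher and lower were 1 and 2 with median scaling, 1 and 1 with cyclic loess, and 0 and 1 with quantile normalization or normexp. The number higher was 1 without mutant replicate 3 or 4, and the number lower was 0 without mutant replicate 1, 3 or 4 or wild-type replicate 1, 2 or 3, and 2 without wild-type replicate 4. No mast cell marker passed without mutant replicates 1 and 4, where 3 were higher and 0 lower at an unadjusted p under 0.05.

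Melanocyte markers were called in both directions, 20% higher and 20% lower, beside 21.6% and 12.4% of all tested genes. Of 5 melanocyte markers tested, Sox10 differed by 0.62 (limma adjusted p = 0.0105), Pmel by -0.43 (adjusted p = 0.0275) and Slc45a2 by 0.29 without passing (adjusted p = 0.126). Their summed level was 3.1 to 3.71 in the mutant and 3.31 to 6.74 in wild type. Only wild-type replicate 1 reached 6.74, and wild-type replicates 2 to 4 had 4.03, 4.01 and 3.31. Mlana, another listed marker, was uneven in wild type (SD 3.65 log2 units, against 0.07 in the mutant). It was well above background on only 2 wild-type arrays, so the upper end of the range is no measure of the list. Tyrp1, the pigment enzyme gene, was not well above background on any array. Pmel lost its call without mutant replicate 1, 3 or 4 or wild-type replicate 2 or 3. All 8 endothelial markers read higher in the mutant, with a median difference of 0.36, and 2 of them passed. The smallest difference was 0.0096. The share of 25% lay near the 21.6% of all tested genes that were higher. Dim probes also read higher in general, with medians of 0.10 and 0.31 among probes near the levels of Dmrt1 and the dim Kitl probe. Cdh5, the cadherin of endothelial junctions, differed by 0.99 (adjusted p = 0.0126) and Pecam1 by 0.69 (adjusted p = 0.0393), with Erg at 0.40 (adjusted p = 0.0882) and a dimmer Cdh5 probe at 0.72 (adjusted p = 0.164). The endothelial list had summed levels of 2.95 to 5.31 in the mutant and 2.38 to 4.40 in wild type. Vwf, the brightest gene of this list, weighed most in these sums (mean log2 level 1.29 in the mutant and 1.28 in wild type). The sums therefore say little about the other endothelial markers. Leaving out 1 array reduced these 2 endothelial calls to 1 in 7 of 8 cases, and 1 passed with median scaling, quantile normalization or cyclic loess and 0 with normexp. No member of either list passed without mutant replicates 1 and 4, where 1 endothelial marker was higher and 0 lower, and 1 melanocyte marker was higher and 1 lower, at an unadjusted p under 0.05.

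**Figure D3:**
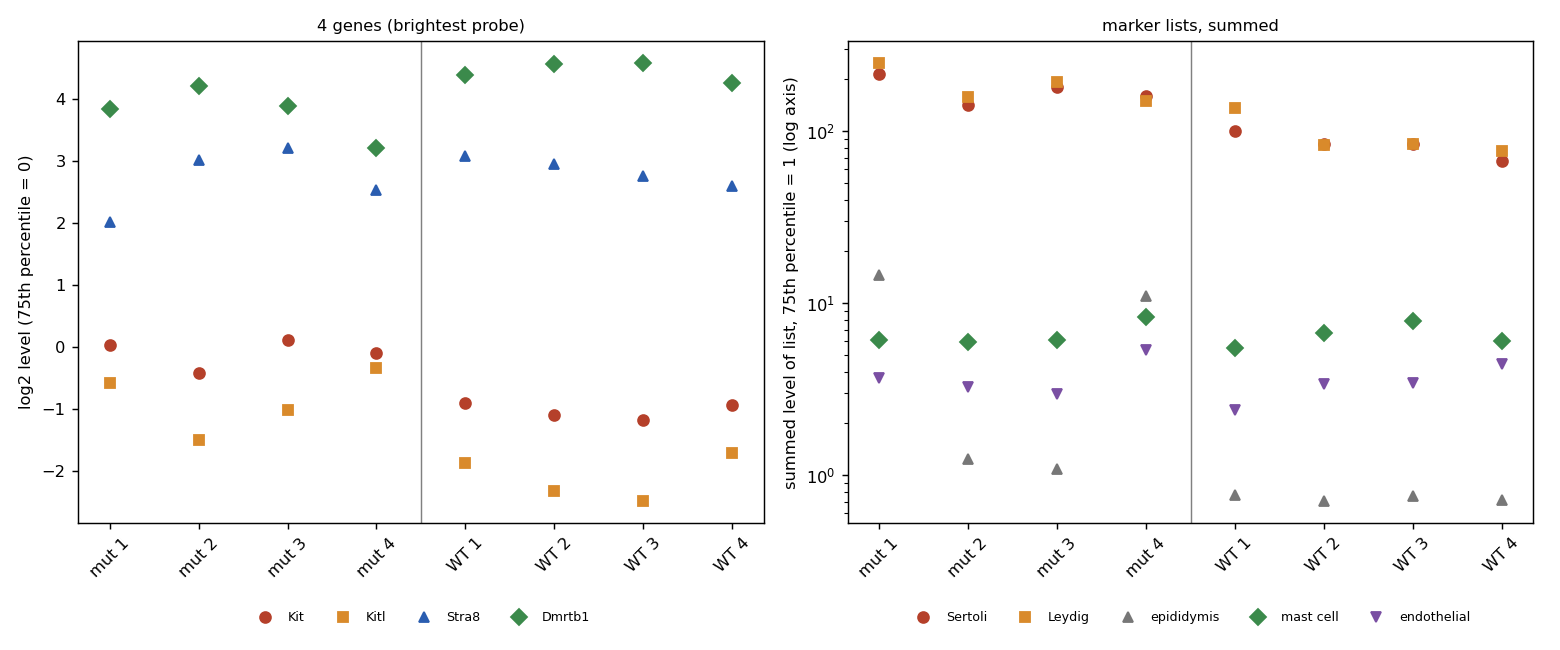
Left, log2 level (75th percentile of the array = 0) of the brightest probe of Kit, Kitl, Stra8 and Dmrtb1 on each array. Right, summed level of 5 marker lists on each array (log axis, 75th percentile = 1), mutant arrays left of wild-type arrays in both panels. Kit, Kitl and the Sertoli and Leydig sums are higher on every mutant array than on any wild-type array, the mast cell and endothelial sums overlap, and the epididymal sum stands out on mutant replicates 1 and 4. The brightest genes weigh most in each sum, such as Hdc among mast cell and Vwf among endothelial markers.

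Dmrtb1 was lower in the mutant with both probes. Probe A_52_P66596 had log2 levels of -0.73, -0.19, -0.59 and -0.34 in mutant replicates 1 to 4, against -0.01, 0.41, 0.35 and 0.62 in wild-type replicates 1 to 4. All mutant samples lay below all wild-type samples. Means were -0.46 ± 0.24 in the mutant and 0.34 ± 0.26 in wild type (SD, n = 4 each), a difference of -0.81 (SE 0.18, 95% interval -1.21 to -0.41, 1.75-fold lower, limma adjusted p = 0.0107). This call held in every setting tried except without mutant replicates 1 and 4, where the difference was -0.74 (adjusted p = 0.0919).

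The brighter Dmrtb1 probe, A_51_P341296, had log2 levels of 3.84, 4.19, 3.88 and 3.20 in mutant replicates 1 to 4, against 4.38, 4.56, 4.57 and 4.25 in wild-type replicates 1 to 4. Mutant replicate 4 was lowest by a wide margin, and the groups did not overlap. The difference was -0.66 (SE 0.21, 95% interval -1.13 to -0.20, 1.58-fold lower, limma adjusted p = 0.0366), beside the median of -0.43 for probes of like level. It was about -0.33 with quantile normalization (adjusted p = 0.190) and -0.31 with cyclic loess (adjusted p = 0.183), and -0.47 without mutant replicate 4 (adjusted p = 0.0640). The call was also lost without mutant replicate 1 (-0.68, adjusted p = 0.0713), mutant replicate 3 (-0.70, adjusted p = 0.0691), wild-type replicate 2 (-0.62, adjusted p = 0.0837) or wild-type replicate 3 (-0.62, adjusted p = 0.0883), and without mutant replicates 1 and 4 it was -0.40 (adjusted p = 0.178). The changes seen by the 2 Dmrtb1 probes differed by 0.15 log2 units (two-sided exact permutation p = 0.571, adjusted 0.571).

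Dmrt1 was not separated between the genotypes. Its log2 levels were -2.22, -1.92, -1.79 and -1.33 in mutant replicates 1 to 4, against -2.08, -2.36, -2.28 and -1.88 in wild-type replicates 1 to 4. Mutant replicate 4 was the highest sample and mutant replicate 1 lay among the wild-type samples. The difference of 0.33 (SE 0.20, 95% interval -0.12 to 0.79) did not pass (limma adjusted p = 0.220), although with arrays weighted by their quality it was 0.43 (adjusted p = 0.0341). It was 0.12 with median scaling, 0.19 with quantile normalization or cyclic loess, and 0.17 with normexp. With single arrays left out it ranged from 0.17 without mutant replicate 4 to 0.47 without mutant replicate 1, and it was 0.29 (adjusted p = 0.312) without both.

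Other Dmrt genes moved in both directions. Of 6 tested, 3 were higher, 1 was lower and 2 did not pass. These shares of 50% and 16.7% stood beside 21.6% and 12.4% of all tested genes. Dmrta1 had log2 levels of 0.35, -0.51, -0.12 and 0.38 in mutant replicates 1 to 4, against -0.81, -1.24, -1.32 and -1.65 in wild-type replicates 1 to 4. The groups did not overlap, and the difference was 1.28 (limma adjusted p = 0.00605). The X-linked genes Dmrtc1b and Dmrtc1a differed by 0.80 (adjusted p = 0.0155) and 0.71 (adjusted p = 0.0161), and as close relatives they may share signal. Dmrt2 differed by -0.76 (adjusted p = 0.0388), a call lost without mutant replicate 2, 3 or 4 or wild-type replicate 2 or 3. With median scaling 2 were higher and 2 lower. None of the 6 passed without mutant replicates 1 and 4, where 3 were higher and 1 lower at an unadjusted p under 0.05.

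Sohlh2, the tested partner of Sohlh1, overlapped between the genotypes. Its log2 levels were -0.96, -0.32, -0.20 and -0.42 in mutant replicates 1 to 4, against -0.94, -0.68, -0.68 and -0.41 in wild-type replicates 1 to 4. Mutant replicate 1 was the lowest sample of all and the other mutant samples lay in or above the wild-type range. The difference of 0.20 (SE 0.19, 95% interval -0.23 to 0.63, limma adjusted p = 0.425) turned to -0.01 with median scaling, and was 0.0037 with normexp and 0.31 with array weights. It was 0.37 without mutant replicate 1, 0.11 without mutant replicate 3, 0.12 without wild-type replicate 1 and 0.42 (adjusted p = 0.179) without mutant replicates 1 and 4. The interval does not show equal levels: it reaches 0.63 on the log2 scale.

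Esx1 was slightly lower in the mutant. Its log2 levels were 0.50, 0.46, 0.43 and 0.67 in mutant replicates 1 to 4, against 0.68, 1.03, 0.99 and 1.05 in wild-type replicates 1 to 4. Mutant replicate 4 and wild-type replicate 1 almost met, and wild-type replicate 1 stood apart from its group. The difference was -0.42 (SE 0.14, 95% interval -0.73 to -0.11, 1.34-fold lower, limma adjusted p = 0.0421). It did not pass with quantile normalization (-0.36, adjusted p = 0.0815), cyclic loess (-0.31, adjusted p = 0.128) or normexp (-0.36, adjusted p = 0.0954), nor without mutant replicates 1 and 4 (-0.49, adjusted p = 0.114). With single arrays left out it ranged from -0.51 without wild-type replicate 1, the only such fit that passed (adjusted p = 0.0208), to -0.38 without wild-type replicate 4 (adjusted p = 0.0660). The other values were -0.42, -0.40, -0.39 and -0.47 without mutant replicates 1, 2, 3 and 4, and -0.39 and -0.40 without wild-type replicates 2 and 3.

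Stra8 varied more within the mutant than between the genotypes. Its log2 levels were 2.01, 3.01, 3.20 and 2.52 in mutant replicates 1 to 4, against 3.07, 2.95, 2.76 and 2.59 in wild-type replicates 1 to 4. Mutant replicates 1 and 4 were the lowest samples of all, and mutant replicate 3 the highest. Means were 2.68 ± 0.53 in the mutant and 2.84 ± 0.21 in wild type (SD, n = 4 each), a difference of -0.16 (SE 0.25, 95% interval -0.72 to 0.40, limma adjusted p = 0.638). The sign turned without mutant replicate 1 (0.07) and without mutant replicates 1 and 4 (0.26, adjusted p = 0.371), and also with quantile normalization, cyclic loess and array weights. These data gave no settled direction for Stra8.

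**Figure D4:**
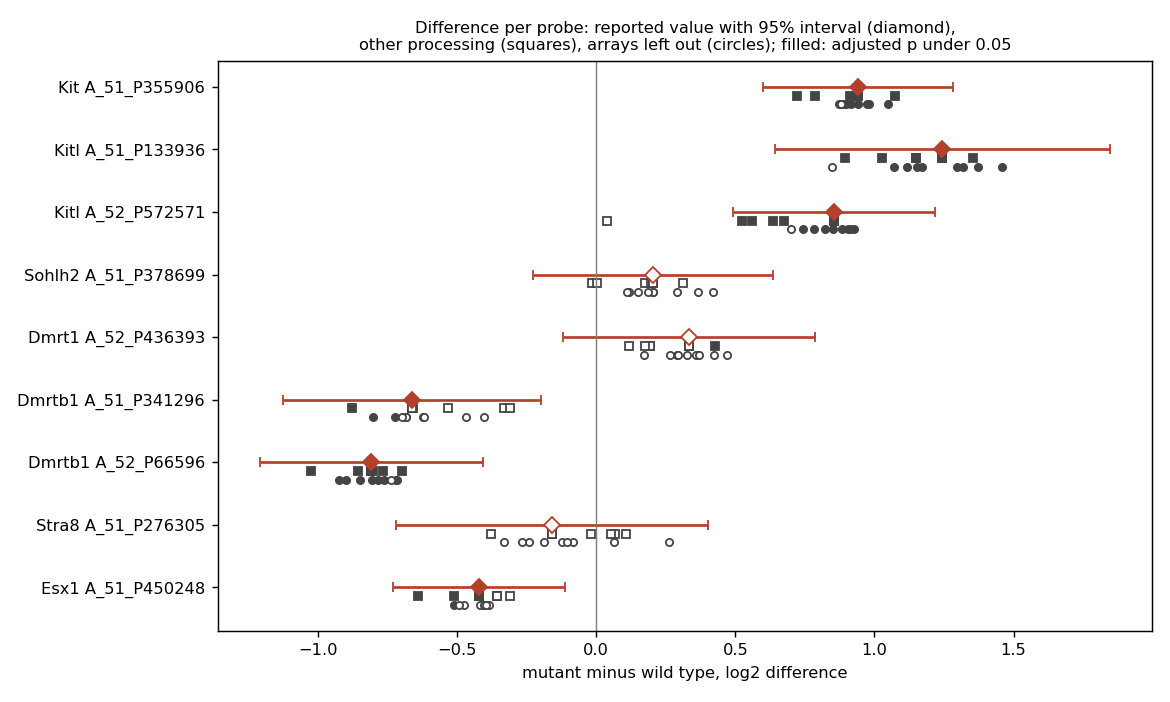
Mutant minus wild-type log2 difference (horizontal axis) of the 9 probes, with the reported value and its 95% interval (diamond), the value under other processing (squares) and with arrays left out (circles), filled where the adjusted p was under 0.05. Kit and Kitl stay to the right of 0 and Dmrtb1 and Esx1 to the left in every setting, while Sohlh2 and Stra8 cross 0, and the open square near 0 for the dim Kitl probe is normexp.

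Other genes of spermatogonial differentiation and meiotic entry were also read. Of 18 listed, 16 were tested, and 2 were higher, 1 was lower and 13 did not pass, with a median difference of -0.15. These shares were 12.5% and 6.25%, beside 21.6% and 12.4% of all tested genes. Rec8, the meiotic cohesin subunit, had log2 levels of 4.27, 4.15, 3.89 and 3.73 in mutant replicates 1 to 4, against 4.63, 4.73, 4.66 and 4.53 in wild-type replicates 1 to 4. The groups did not overlap, and the difference was -0.63 (limma adjusted p = 0.0147), with -0.55 (adjusted p = 0.0136) from its other probe. Lin28a, an RNA-binding protein gene of spermatogonia, differed by 0.58 (adjusted p = 0.0207). Ccnd2, a cyclin that appears as spermatogonia differentiate, differed by 0.93 (adjusted p = 0.0319), and its other probes by 0.90 (adjusted p = 0.0198) and 0.96 (adjusted p = 0.0732). The number higher was 1 without mutant replicate 1 or 3 or wild-type replicate 2, and 0 without mutant replicate 4 or wild-type replicate 3. The counts higher and lower were 0 and 3 with median scaling, 1 and 0 with quantile normalization or cyclic loess, and 0 and 1 with normexp. The number lower was 2 without mutant replicate 2 or 3, and 0 of either kind passed without mutant replicates 1 and 4, where 4 were higher and 1 lower at an unadjusted p under 0.05. The list's summed level was 25.3 to 34.7 in the mutant and 39.6 to 43.1 in wild type, without overlap. Rec8, the brightest gene of the list (mean log2 level 4.01 in the mutant and 4.64 in wild type), weighed most in this sum. The sum therefore says little about the other genes of the list.

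Markers of undifferentiated spermatogonia, which precede the Kit-positive stage, were higher in 4 of 14 tested, none was lower and 10 did not pass, and the median difference was 0.14. The 28.6% that were higher lay near the 21.6% of all tested genes. One of the 4, Ret, was well above background on only 2 wild-type arrays. Etv5, a transcription factor of stem cell maintenance, had log2 levels of -2.50, -2.50, -2.59 and -2.18 in mutant replicates 1 to 4, against -3.51, -3.21, -3.35 and -3.35 in wild-type replicates 1 to 4. No values overlapped, and the difference was 0.91 (limma adjusted p = 0.00284), though its other probe gave 0.86 without passing (adjusted p = 0.0755). Nanos3, an RNA-binding protein gene of germ cells, differed by 0.87 (adjusted p = 0.00502) and Foxo1, a forkhead transcription factor, by 0.55 (adjusted p = 0.0178). Etv5 is also expressed by Sertoli cells, whose markers were higher on the same arrays, and their part in it was not tested. The list's summed level of 7.15 to 9.61 in the mutant overlapped with 8.34 to 11.3 in wild type. Id4, the brightest gene of the list, weighed most in this sum (mean log2 level 2.08 in the mutant and 2.68 in wild type). It differed by -0.59 without passing (limma adjusted p = 0.0817), and the sum says little about the other markers. The count of 4 became 2 without mutant replicate 3 or wild-type replicate 3 and 1 without mutant replicates 1 and 4. At an unadjusted p under 0.05, 4 were higher and 2 lower, and with median scaling 2 passed as higher and 2 as lower.

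Spermatid markers were lower in 4 of 8 tested, none was higher and 4 did not pass, with a median difference of -0.43. This 50% stood beside 12.4% of all tested genes. Bright probes were lower more often: near the brighter Dmrtb1 probe (mean log2 level 4.11) 35.4% were lower, and the median difference was -0.43. The spermatid markers had mean log2 levels from 2.75 to 9.02 in the mutant. That share and median are therefore not matched to the levels of the list. Tbpl1, a TBP-related transcription factor of spermatids, differed by -0.72 (limma adjusted p = 0.00871). Of its 3 other probes, 1 passed at -0.84 (adjusted p = 0.0163), and those at -0.33 and -0.18 did not. Spata16, an acrosome gene, differed by -0.67 (adjusted p = 0.0121), and Acr, the acrosomal protease, by -0.66 (adjusted p = 0.0132). No spermatid marker passed with quantile normalization or cyclic loess, or without mutant replicates 1 and 4, where 0 were higher and 3 lower at an unadjusted p under 0.05. Summed spermatid levels were 1297 to 1814 in the mutant and 1637 to 2171 in wild type, and the part of spermatids in the Dmrtb1 and Esx1 differences was not tested.

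Genes with the most similar profiles were found by the root mean square difference of log2 levels over the 8 arrays, each gene first centred on its own mean, among 18024 genes with a symbol. Gpr37, an orphan receptor gene, was nearest to Kit at 0.0636, followed by Eci2 and Acadm, enzymes of fatty acid oxidation, at 0.0722 and 0.0757, where the median gene lay at 0.589. Pja1, a ubiquitin ligase gene, was nearest to Kitl at 0.0957, followed by Unc119, a lipid-binding trafficking factor, at 0.103 and Ank, a membrane transporter gene of pyrophosphate, at 0.111. The nearest to the brighter Dmrtb1 probe were 1700016A09Rik at 0.0486, Fam98c at 0.0538 and Gmfb at 0.0577. These likenesses describe 8 arrays and include the difference between the genotypes.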

How the data were processed

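Whole testicular cell RNA in 4 mutant and 4 wild-type samples was measured on single-colour Agilent arrays. Scans were read with Agilent Feature Extraction 9.5.3.1, per the submitters' processing notes. The intensity values in the deposited files are Agilent's processed signal, background-subtracted and detrended within each array but not scaled between arrays, per the file headers. The series' own table repeated this intensity in 100% of features (relative tolerance 1e-04). No feature was saturated.

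Dividing by the 75th percentile of an array's non-control features made the signals comparable, values under a floor of 0.0144 were set to it, and log2 was taken. Outlier spots were left out, and spots of a probe were averaged. A probe was kept if it was well above background on 4 or more of the 8 arrays and had 3 or more values per group (33717 of 41174). Under R 4.3.3, limma 3.58.1 (lmFit, then eBayes) gave two-sided p-values for genotype, with Benjamini-Hochberg adjustment over all kept probes and a threshold of 0.05. This fit was first tested on simulated data. For lists, each gene was read with its kept probe of highest mean level (23155 genes). Summed levels of a list add values that are not logged, so its brightest genes weigh most. Of the probes, 22951 were named through their transcript accession, 6659 by a current symbol, 3109 by a unique synonym and 8455 by the array's name. The number of arrays limits the precision, and log2 values of 2 arrays correlated by 0.966 to 0.995 where they shared a genotype and by 0.953 to 0.984 where they did not.

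The genes followed and all lists were chosen with earlier results of these data known, and no list was given a test of its own. Named were every probe of the 8 genes, the 3 list genes with the smallest p in each list (from the Kit pathway also Ptpn6, Grb2, Akt1, Stat3 and Lyn), Vrk1, and the 3 genes with the nearest profile to Kit, Kitl and Dmrtb1. Mcpt4, Dmrt2, Tyrp1, Spry4, Ret, Cst11, Rnase10, Lcn9, Clu, Insl3, Cblb, Mlana, Hdc, Gata2, Vwf and Id4 were named after their values were seen. A further gene of the Kit pathway list is not reported here. Alternatives were median, quantile and cyclic loess scaling, normexp (offset 50) on the mean and background intensity, other filters, 1 probe per gene, array weights, the replicate number as a block, and arrays left out.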

Additional observations from a re-analysis of the deposited data

Results flagged for a closer look

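Esx1 in wild-type replicate 1 had a log2 level of 0.68 and stood apart from the other wild-type replicates, which lay between 0.99 and 1.05. Its gap to the nearest replicate, divided by the range of the group, was 0.842, above Dixon's critical value at 95% for 4 samples. It was the only such case among the 18 groups of 4 values examined for the 9 probes, where chance alone marks about 1 in 20. Without this replicate the Esx1 difference was -0.51 (limma adjusted p = 0.0208), against -0.42 with it.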

How the results depend on the processing

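The series value table gave the same values as the scanner files. A slide block could not be run, since each genotype had its own slide. The calls of Kit and of the brighter Kitl probe held in all alternatives except without mutant replicates 1 and 4. There none of the 9 probes passed limma (0 higher, 0 lower; 3 and 2 at an unadjusted p under 0.05), over all probes 1321 were higher and 220 lower, and the Kit pathway list had 1 higher and 0 lower. Of the 3 lower probes, the number passing was 1 after quantile normalization, 1 after cyclic loess, 1 after normexp and 1 to 3 with single arrays left out, where the 3 higher probes stayed at 3. With single arrays left out, 4782 to 7351 probes were higher and 1664 to 4412 lower (1664 to 1980 without mutant replicate 1, 3 or 4 or wild-type replicate 2 or 3, which also left 1 of the 3 lower probes), and the pathway list had 6 to 11 higher and 2 to 7 lower. Median scaling gave 4491 higher and 8768 lower probes (33.9% of calls higher, against 66.2% as reported, with the median of all probes at -0.17 in place of 0.05), and 6 higher and 13 lower in the pathway list. Normexp gave 2092 higher probes (40.3% of calls, all-probe median -0.23), and 3 and 3 in the list. Quantile normalization gave 4405 higher probes and 6 higher in the list, where cyclic loess also gave 6. Keeping only probes well above background on all 8 arrays gave 5345 higher and 3855 lower probes (58.1% of calls higher), and 10 and 5 in the list. Array weights gave 7599 lower probes and 9 lower in the list. Taking the replicate block gave 9242 higher and 5913 lower probes and changed no call of the 9 probes. Same-numbered arrays of the genotypes correlated by 0.28, 0.24, 0.09 and 0.61 in their deviations from the group means. Each mutant array correlated best with the wild-type array of its own number. The reverse also held, except that wild-type replicate 3 correlated best with mutant replicate 2. Whether the numbers mark pairs was not settled by these values, and the reported fit treated the arrays as unpaired. Stra8 turned to 0.066 after quantile normalization, 0.11 after cyclic loess, 0.052 with array weights and 0.26 without mutant replicates 1 and 4, and lay between -0.33 and 0.065 with single arrays left out, while Sohlh2 turned to -0.014 with median scaling, and none of these passed. The cause of these changes was not tested.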
